A study of Mus musculus with 20 samples.

Results

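The regions described here are strong H3K27ac regions of cultured mouse neurons whose signal stood close to the control after NMDA. A region was taken as a member when its control enrichment was at least 3 on the log2 scale and its NMDA value minus its control value lay between -0.25 and 0.25, as deposited. This gave 1824 members among 119345 regions in the table, which is 1.53% of all regions and 15.3% of the 11890 regions with a control enrichment of at least 3, called strong below. Of all 119345 regions, 39.6% lay within the same window. The members were chosen by their measured control and NMDA enrichments, so counts and differences built on them are a description and carry no test. The control cells were day 10 neurons kept in DMSO alone for 6 h, and the treated cells were day 10 neurons given 200 µM NMDA for 6 h. The strain label of all groups is 159.2, and no genetic change is named in the labels. Each H3K27ac group had 2 libraries, which the authors merged into 1 value per region, so no spread between replicates can be given and no difference below was tested against one.

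H3K27ac is acetylation of lysine 27 on the tail of histone H3. It is written mainly by the acetyltransferases CBP and p300, is removed by histone deacetylases, and marks active promoters and active enhancers, where it is bound by bromodomain proteins that help transcription. NMDA opens a class of glutamate receptors that let calcium into neurons, and calcium signalling reaches CBP and other chromatin regulators in the nucleus. Strong H3K27ac regions are typically promoters of expressed genes and the most active enhancers of a cell type. Which genes the members belong to cannot be said here, since the table names regions by number and width alone. No sequence is printed for the same reason.

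The members lay at the weaker end of the strong regions. Their control enrichment had a median of 3.49 (quartiles 3.22 and 3.82, highest 5.41), against 3.86 (quartiles 3.45 and 4.31) for the 10066 other strong regions. Of the members 935 had a control value under 3.5, and 305 (16.7%) had one of at least 4, against 4170 (41.4%) of the other strong regions. Their NMDA enrichment had a median of 3.39 and ranged from 2.77 to 5.31, and 1628 of the 1824 were at 3 or above. The rule itself puts a floor under these NMDA values. Each value is the log2 of the merged reads over a reference common to both columns, so whole reads could be recovered for every member. The median member held 463 reads in control and 439 after NMDA, with ranges of 134 to 2334 and 123 to 2310. Summed over members, 981336 control reads stood against 913455 NMDA reads, a log2 ratio of -0.10, while the summed reads of the other strong regions gave -0.64.

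Within the window the members were not spread evenly around 0. The median difference was -0.12 (quartiles -0.19 and -0.02), with 1421 members below the control, 17 equal to it and 386 above it. Of all 119345 regions, 66.9% were below the control and 30.0% above it. Only 602 members were within 0.1 of the control in either direction, and 748 were lower by more than 0.15. The strong regions as a whole had a median difference of -0.54 (quartiles -0.76 and -0.35), and 11429 of 11890 were below the control. Their differences formed 1 slope with no separate peak in the window: in successive slices 0.1 wide, 1574 strong regions had a difference of -0.55 to -0.45, 1499 of -0.45 to -0.35, 1143 of -0.35 to -0.25, 748 of -0.25 to -0.15, 493 of -0.15 to -0.05, 314 of -0.05 to 0.05, 172 of 0.05 to 0.15 and 97 of 0.15 to 0.25. The lower edge of the window therefore cuts through a populated slope, and the upper edge through a thin one. Beyond the upper edge lay 58 strong regions. Below the lower edge lay 8810 that were lower by less than 2-fold and 1198 (10.1%) that were lower by at least 2-fold, against 3.58% of all regions for this last size of change.

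**Figure D1:**
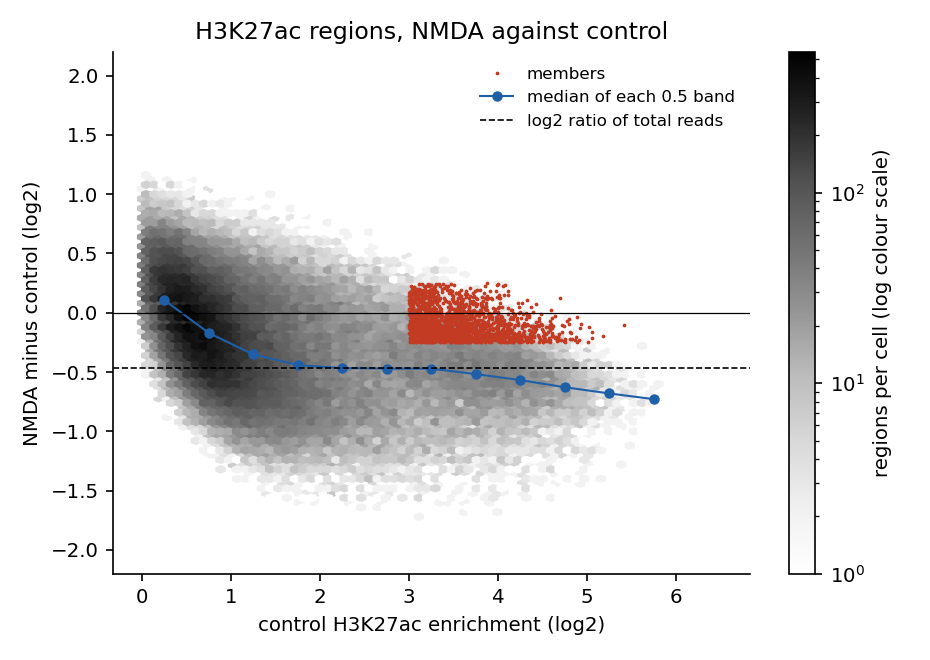
All regions with a control enrichment of 0 or more, by control enrichment (x, log2) and NMDA minus control difference (y, log2), with members in red, the median of each 0.5 band in blue and a dashed line at -0.46, the log2 ratio of total NMDA to control reads without a pseudocount. The members form a block above the blue line that thins out to the right, with the last one at 5.41.

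The values on both sides of each edge were close. Region 50009, just above the limit on control enrichment, had 3.0002 in control and 2.99 after NMDA (433 and 429 reads). Region 53328, just under that limit, had 2.9998 in control and 2.78 after NMDA (276 and 235 reads). At the lower edge of the window region 96686 was a member with a difference of -0.2498, and region 12724 was not, with -0.2501. At the upper edge region 13798 was a member with 0.249 (414 reads in control, 495 after NMDA), and region 101001 was not, with 0.2505 (253 and 304 reads). The members next to an edge therefore hardly differ in value from the regions next to it outside.

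On the deposited scale the share of regions within the window depended on how strong the region was. With equal totals, 56.5% of strong regions lay in the window against 37.2% of all regions, so this order holds for the deposited scale only. Between control values of 3 and 3.5 it was 24.7% of 3778 regions, between 3.5 and 4 it was 16.1% of 3637, between 4 and 4.5 it was 8.58% of 2715, and between 4.5 and 5 it was 5.0% of 1320. Only 6 of the 361 regions between 5 and 5.5 were members, and none of the 75 between 5.5 and 6 or of the 4 above 6. Over the same bands the median difference went from -0.47 at 3 to 3.5 to -0.63 at 4.5 to 5 and -0.73 at 5.5 to 6. Below the limit of 3 the share in the window was higher, with 27.1% at 2.5 to 3, 32.5% at 1 to 1.5 and 55.2% at 0 to 0.5. The deposited values contain a pseudocount of 16 reads, which draws the differences of weak regions towards 0. With a pseudocount of 1 in its place the share at 0 to 0.5, where the median region held 11 control reads, was 27.3%, and it was 23.8% at 1 to 1.5, 23.6% at 3 to 3.5, 15.5% at 3.5 to 4 and 8.21% at 4 to 4.5. The order among strong bands was thus the same, while the high shares of the weakest bands were not found. Sorting regions by the mean of both columns, which favours neither, gave a like order: 24.1% of regions with a mean of 3 to 3.5 were in the window, 16.2% at 3.5 to 4, 10.5% at 4 to 4.5 and 7.89% at 4.5 to 5.

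**Figure D2:**
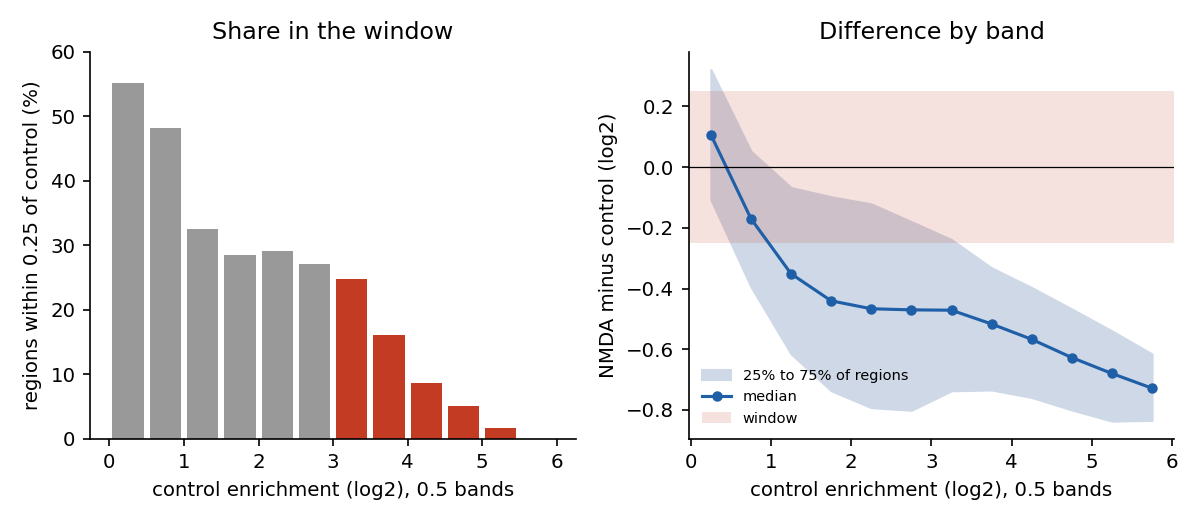
Left, share of regions in each 0.5 band of control enrichment (x, log2) whose NMDA value was within 0.25 of the control (y, percent), with bands of strong regions in red; right, the median difference (blue) and the range from 25% to 75% of regions (shaded) against the window (pink). The share falls from 24.7% at 3 to 3.5 to 1.66% at 5 to 5.5, and the median leaves the window before a control value of 1.5.

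The 10 strongest members had control enrichments of 4.89 to 5.41. Region 17216, 1531 bp wide, had the highest control enrichment of any member, 5.41, and 5.31 after NMDA. It held 1919 control and 1783 NMDA reads, so NMDA stood at 93.0% of control. Region 21483 (1488 bp) had 5.18 in control and 4.99 after NMDA, from 1810 and 1579 reads. Region 20324 (1192 bp) had 5.05 and 4.84, from 1211 and 1043 reads. These differences, -0.11, -0.20 and -0.21, compare with a median of -0.68 for all 361 regions between 5 and 5.5.

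The next 7 members in order of strength had differences between -0.25 and -0.03. Region 24439 (1798 bp) had 5.05 in control and 4.89 after NMDA, region 58758 (1027 bp) 5.02 and 4.91, and region 12116 (864 bp) 5.01 and 4.76. Region 22081 (995 bp) had 4.93 and 4.84, region 18831 (1521 bp) 4.92 and 4.79, and region 100662 (1547 bp) 4.91 and 4.68. Region 12808, which was 898 bp wide, was the closest to its control among these 10, with 4.89 and 4.86 from 1028 and 1004 reads. All 10 were below the control. The 3 strongest regions of the table, named here after their values were seen, were all outside the window: region 90672 had 6.25 in control and 5.79 after NMDA, region 28325 had 6.21 and 5.39, and region 51041 had 6.10 and 5.38.

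Members of extreme width behaved differently from one another. The widest, region 93328 with 3064 bp, was higher after NMDA, with 3.93 in control and 4.05 after it (1812 and 1977 reads). Region 48109, 2796 bp wide, was also higher, with 3.29 and 3.48 (1064 and 1217 reads). Region 48399, 2742 bp wide, was lower, with 3.55 and 3.44 (742 and 686 reads). The narrowest, region 22097 with 196 bp, had 3.81 and 3.72 from 227 and 212 reads. Region 66182 (200 bp) had 3.01 and 2.92 from 134 and 125 reads, and region 22080 (201 bp) had 3.30 and 3.26 from 177 and 172 reads. The narrow members rest on few reads, and the interval of each reaches past the window on at least 1 side.

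Counting error set how firmly a member could be placed in the window. For each region an exact binomial (Clopper-Pearson) interval at 95% was computed for the ratio of NMDA to control reads. It covers counting error only, since reads are not independent molecules and the spread between libraries is unknown. The median width of a member's interval was 0.39 on the log2 scale (0.17 to 0.73), against a window 0.5 wide. The interval lay wholly within the window for 336 members (18.4%) and reached past it for 1488. It held 0 for 1241 members, was wholly below 0 for 524 and wholly above 0 for 59. No such counts against 0 were made for all regions or for the other strong regions. The rule also confines the members' differences to the window. These counts therefore describe the members alone and cannot say whether they differ from other regions in this respect. Of the other strong regions, 2232 (22.2%) had an interval that reached into the window, so the border between members and the rest is not sharp at this depth.

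**Figure D3:**
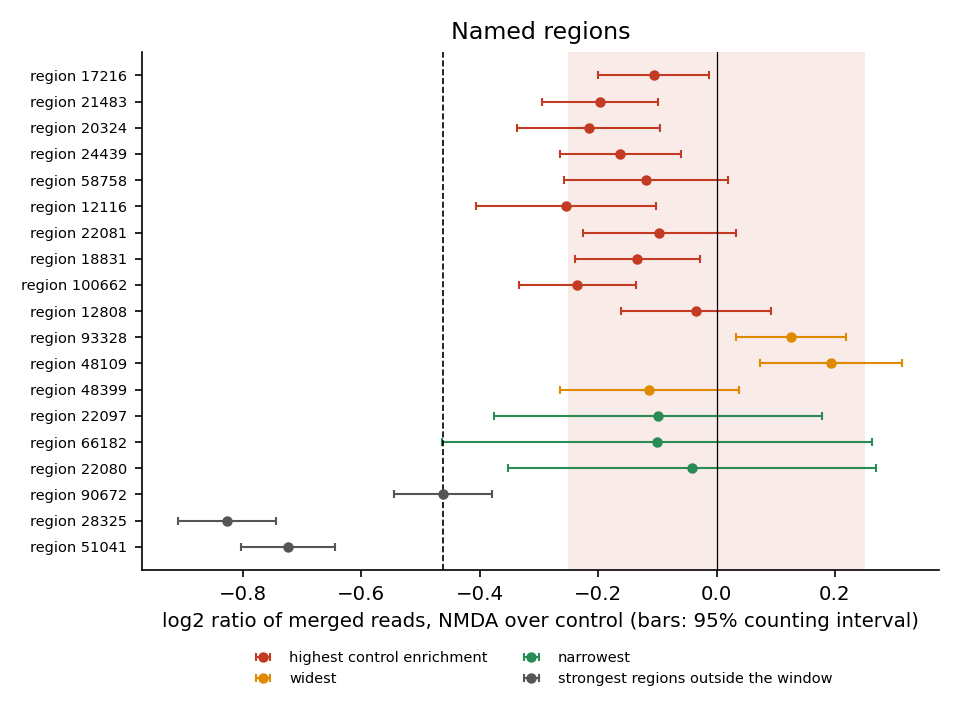
Log2 ratio of merged NMDA to control reads (x) with its 95% counting interval for the 10 members of highest control enrichment, the 3 widest and 3 narrowest members, and the 3 strongest regions outside the window (y, by region number); the pink area is the window and the dashed line is at -0.46. The narrow members have the broadest intervals, and the 3 regions outside the window lie between -0.46 and -0.83.

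How members compare with the control depends on how the 2 merged columns are scaled. Over all regions there were 12906509 control reads and 9369075 NMDA reads, a ratio of 0.726, and neither the labels nor the table say whether the libraries were matched in depth. If the totals are made equal, all 1824 members stand above the control, with a median difference of 0.32 (quartiles 0.25 and 0.43), and 1403 of them stand above the window. The rule fixes that side: members were lower by at most 0.25, while equal totals raise the NMDA reads by 0.46 (log2). Strong regions as a whole then have a median of -0.10, and 6718 of them (56.5%), 421 of them members, fall in the window, against 37.2% of all regions. Relative to the median of all regions, which was -0.21, the members have a median of 0.09 and 1485 of them are above 0. That baseline moves with the pseudocount: with 1 in place of 16 the median was -0.33 for all regions and -0.13 for members. The share of all reads that fell in members was 7.60% in control and 9.75% after NMDA, while the share in all strong regions was 61.8% and 57.7%. The rise in members also follows from the rule, which kept regions near the control while total reads fell to 0.726 of it. The label of these regions as resistant therefore holds on the deposited scale. With equal totals the rule itself places the same regions above the control. Which scale reflects the amount of the mark per cell was not tested.

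The ratio of summed reads also changed with the strength of a region. The log2 ratio of summed NMDA to control reads was 0.30 among 71 regions with a mean enrichment of -1 to -0.5 and -0.08 among 818 at -0.5 to 0. Among 28684 regions with a mean enrichment of 0 to 0.5 it was -0.22, among 18508 with a mean of 1 to 1.5 it was -0.37, and among 3925 with a mean of 3 to 3.5 it was -0.49. The 1964 regions at 4 to 4.5 gave -0.56.

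Width was not used to choose the members, and it hardly set them apart at a given strength. The median member was 1094 bp wide (quartiles 775 and 1471), against 1177 bp (853 and 1524) for other strong regions and 289 bp for all regions. Strong regions were wider the stronger they were, from a median of 982 bp at 3 to 3.5 to 1358 bp at 4.5 to 5. Within the band of 3 to 3.5 the members had a median of 972 bp, regions lower by less than 2-fold 981 bp and regions lower by at least 2-fold 1033 bp. Between 3.5 and 4 these were 1132, 1157 and 1177 bp, and between 4 and 4.5 they were 1303, 1250 and 1344 bp. Sorted by width into 4 groups of about equal size, regions at 3 to 3.5 were members in 24.8%, 25.5%, 22.5% and 26.1% of cases from the narrowest to the widest group.

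The depth of the reference, by contrast, went with membership among the weaker strong regions. The reference is the common denominator of both columns; which library it was is not stated in the labels or the table. It cancels in the difference, but it enters the control enrichment of the rule, so regions were compared within bands of control enrichment. Members had a median of 54.4 reference reads per kb, regions lower by less than 2-fold 49.9 and regions lower by at least 2-fold 40.7. Within 3 to 3.5 the medians were 56.8, 53.7 and 44.7 reads per kb. Within 3.5 to 4 they were 55.1, 52.9 and 41.9, and within 4 to 4.5 they were 50.03, 48.9 and 38.7. The step to the regions lowered 2-fold was larger than the step between members and the regions in between. In 4 groups of about equal size, from the fewest to the most reference reads per kb, the share of members among regions at 3 to 3.5 was 17.9%, 25.3%, 26.5% and 29.3%. At 3.5 to 4 it was 12.2%, 15.7%, 16.8% and 19.5%. At 4 to 4.5 no such order of the share was seen, with 8.54%, 7.22%, 8.997% and 9.57%, nor at 4.5 to 5, with 6.36%, 2.73%, 4.55% and 6.36%. The median difference in the same groups was -0.62, -0.59, -0.53 and -0.53 at 4 to 4.5. At 4.5 to 5 it was -0.66, -0.65, -0.63 and -0.59, so the differences still went with the reference where the share did not. The part that sequence composition or the reference itself plays in this was not tested.

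**Figure D4:**
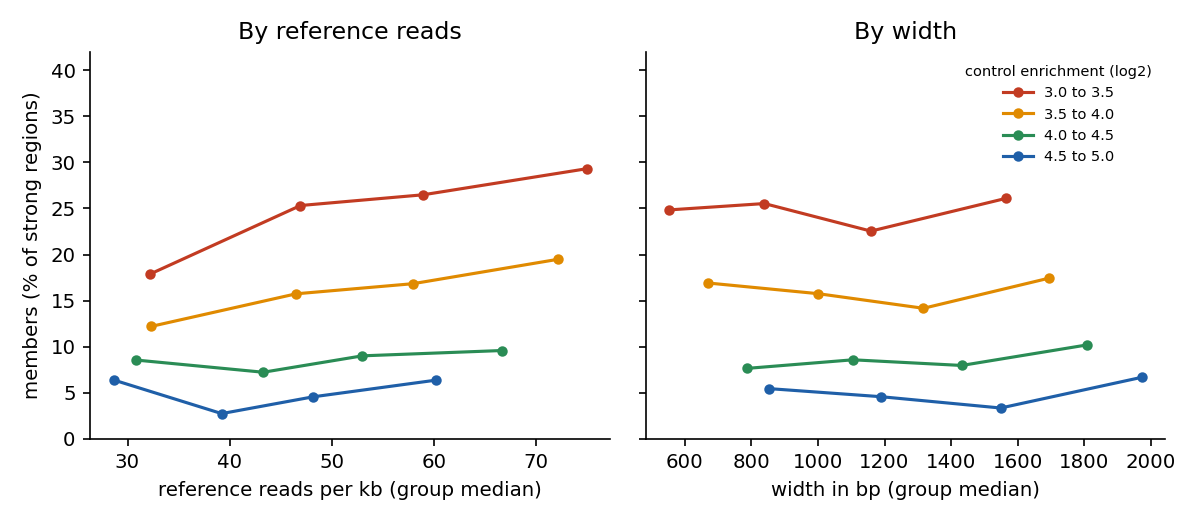
Share of strong regions that were members (y, percent) in 4 groups by reference reads per kb (left) and by width (right), each point placed at its group's median, with 1 line per band of control enrichment. The lines for 3.0 to 3.5 and 3.5 to 4.0 climb with the reference reads, from 17.9% to 29.3% and from 12.2% to 19.5%, and lie level with width.

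Members lay near other members in the numbering of the regions. The table numbers its regions from 1 to 119345 in row order, and whether this order follows the genome is not stated in it. Most members, 1493, had no member at the next or previous number, while 137 pairs, 15 runs of 3 and 3 runs of 4 consecutive numbers were all members. Of the regions 1 number away from a member, 9.65% were members themselves, against 4.52% of those next to another strong region and 0.67% of those next to a strong region lowered at least 2-fold. Among neighbours that were themselves strong these shares were 27.9%, 16.03% and 2.99%, against 15.3% of all strong regions. The 15.3% covers strong regions whatever lies beside them, so it is not the share for strong regions beside strong ones. Within 3 to 3.5 the shares of strong neighbours that were members were 28.3% for members and 14.0% for other strong regions, within 3.5 to 4 they were 26.1% and 15.2%, and within 4 to 4.5 they were 30.5% and 17.4%.

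The neighbours' differences followed the same order, but those of strong neighbours are in part values that the rule chose. Of the 1261 strong neighbours of members 352 were members themselves, against 16 of the 536 beside regions lowered at least 2-fold. Strong regions 1 number from a member had a median difference of -0.39 (1261 neighbours), strong regions next to one lowered by less than 2-fold had -0.52 (5096) and those next to one lowered at least 2-fold had -0.89 (536). The control enrichment of these neighbours was alike, with medians of 3.85, 3.84 and 3.75. Neighbours below the limit of 3, which cannot be members, gave medians of 0.00, -0.12 and -0.42, against -0.17 for all regions below that limit. At 10 numbers away the strong neighbours had -0.49, -0.51 and -0.61, and at 500 away they had -0.53, -0.54 and -0.49. The gap between the groups was thus largest at the next number and small at 50 and beyond. All of these values come from the same libraries, and adjacent regions may share reads from fragments that span both.

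**Figure D5:**
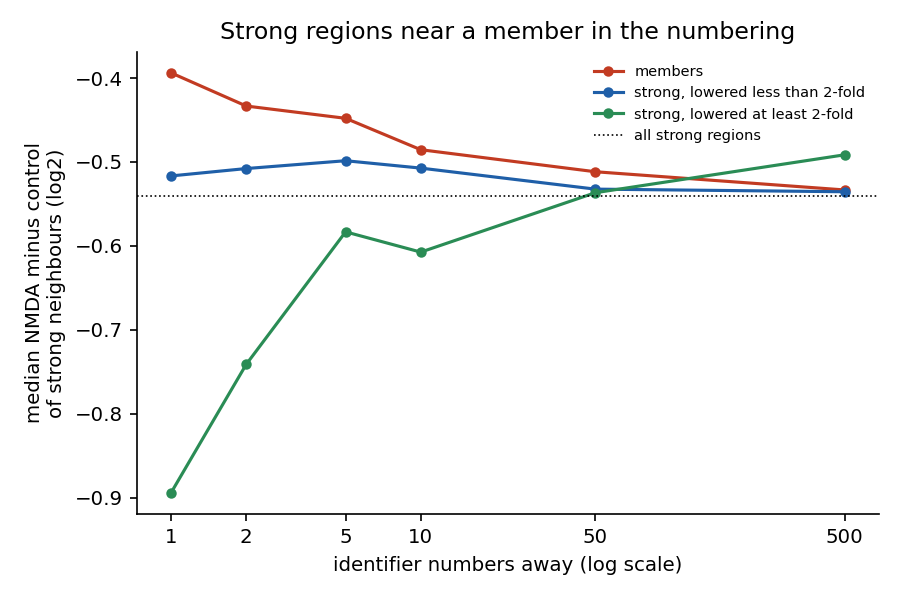
Median NMDA minus control difference (y, log2) of strong regions that lie a given number of identifiers (x, log scale) from a member, from a strong region lowered by less than 2-fold or from one lowered at least 2-fold; the dotted line is the median of all strong regions, -0.54. The 3 lines start at -0.39, -0.52 and -0.89 and lie near the dotted line at 50 numbers away.

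The 3 runs of 4 consecutive members, picked out after their values were seen, were mixed in direction and strength. Regions 33557 to 33560 had control values of 4.74, 4.72, 3.87 and 3.19 and NMDA values of 4.63, 4.56, 3.99 and 3.37. The first pair was thus lower after NMDA and the second pair higher. Regions 51129 to 51132 had control values of 3.25, 3.75, 3.81 and 3.05 and NMDA values of 3.48, 3.64, 3.57 and 3.14. Regions 64966 to 64969 were all lower after NMDA, with control values of 3.15, 3.03, 3.43 and 3.96 and NMDA values of 3.05, 2.92, 3.28 and 3.78. Across the table as a whole members were spread throughout: in 24 blocks of up to 5000 numbers they made up between 9.91% and 21.9% of the strong regions (median 14.7%), with 31 to 122 members in a block.

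The day 10 neuron label was checked in the RNA libraries of the same treatments, the only data of the series with gene names. All 12 pan-neuronal markers were above 0 in all 4 libraries, among them Tubb3, which encodes neuronal tubulin (25720 and 28109 normalised counts in control, 26402 and 24096 after NMDA). Single markers differed in direction: Nefm had 4532 and 5564 in control and 2761 and 2954 after NMDA, and Elavl4 had 1383 and 1342 and then 1690 and 1567. The summed level of all 12 was lower after NMDA, with 156120 and 164433 in control and 140619 and 125630 after it. The 6 fibroblast and mesenchyme markers summed to 108077 and 98771 in control and to 200069 and 272606 after NMDA. For the 8 progenitor markers the sums were 13200 and 15763 in control and 23935 and 32008 after NMDA. The 5 astrocyte markers summed to 6399 and 7721 in control and to 10274 and 15540 after NMDA, and the 5 oligodendrocyte markers to 1350 and 1272 and to 1696 and 2124. The 3 microglia markers stayed between 3.60 and 9.66 in sum. H3K27ac was measured in whole cultures, so a change in the cells present and a change in acetylation per cell cannot be told apart, and the part of either in the members' values was not tested.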

How the data were processed

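The H3K27ac table gives each region's width and, for each group, a log2 merged enrichment computed by the authors. Per the submitters' processing notes, the build was mm9 and the tools TopHat, Bowtie, HTSeq and DESeq; their roles and the peak caller are not stated there. Reads were recovered from the deposited values as log2 of reads plus 16 over a scaled reference plus 16, which gave whole numbers, within a relative tolerance of 1e-08, in 119344 of 119345 regions, including all members; the recovery was tested on simulated data. Members were found by the rule on the deposited values. Named regions were those of highest control enrichment, of extreme width and nearest the edges of the rule; others are marked as picked later. The members and lists were chosen with earlier results of these data known. Tests between libraries, planned for the case of values per library, were not run, since the values are merged. The RNA table holds a signal deposited as normalised read counts for 21937 genes; only marker levels were taken from it, as a description. Region identifiers differ between tables, so the stage tables were not used here. Computation used Python 3.11.15, numpy 2.4.6, pandas 2.3.3 and scipy 1.17.1.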

Additional observations from a re-analysis of the deposited data

How the results depend on the processing

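The number of members was 2979 with a control limit of 2.5 and 889 with 3.5, and 602 and 5292 with a window of 0.1 and 0.5 either way. It was 4352 (36.6%) relative to the median of all regions, 6718 (56.5%) with equal total reads and 1744 (14.7%) with a pseudocount of 1. Alternatives chosen after seeing the data gave 1693 (20.6% of 8237) with the limit set on the NMDA value and 1757 (17.5% of 10067) with it set on the mean of both values. They gave 336 (2.83% of 11890) when the counting interval had to lie within the window. The median difference of strong regions, -0.54, was -0.56 with a pseudocount of 1, -0.33 relative to the median of all regions, -0.10 with equal totals, -0.47 with the limit on the NMDA value and -0.51 with it on the mean, so it kept its sign in each. A minimum of 100 control reads removed no strong region, but it could not have removed any. With the pseudocount in the deposited values, the control limit itself requires more than 100 control reads. The fewest control reads in a strong region were 121. This minimum is therefore no check on the results. The median width of members minus that of other strong regions was -83.0 bp, -9.63 bp within bands of control enrichment and 805 bp against all regions, where the sign turns because most regions are weak and narrow. No paired analysis was possible because the H3K27ac values are merged over the 2 libraries; for the same reason no library could be left out. Depth limits the counting interval of each region. The side of the control on which members stand changed with the scaling of the merged columns: 386 were above it as deposited and 1824 with equal totals, where the rule fixes the side.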
